A study of Rattus norvegicus with 12 samples.

Results

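The miRNAs described here are those of the myosin heavy chain genes, measured in the soleus of 12 adult rats. They were chosen by name, as the rows of the rat miRNA array whose names begin with miR-499 or miR-208, with all letters and arms included and the star strands (the arms of a hairpin marked by an asterisk) left out. The rule found 4 of the 677 rat miRNAs on the array, named there rno-miR-499, rno-miR-208, rno-miR-208b-3p and rno-miR-208b-5p, and written without the species prefix below. Of these 4, miR-499 was detected on all 12 arrays, miR-208b-3p on 11, and the other two on 0.

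The study compared muscle miRNAs between offspring of dams on different diets, with a high fat maternal diet as a model of early insulin resistance. All 12 rats were male Sprague-Dawley offspring aged 1 year, each with soleus RNA on 1 array: 6 were born to control dams on chow, and 6 to dams on a high fat diet rich in lard and sucrose, given from before mating until the end of lactation. All offspring ate chow from weaning, and the labels do not say which rats were littermates, so that p-values measure the spread between these 12 rats. The study's text gives group sizes other than those of the labels, which were used here, and whether H3 was in the study's own set is not given in the sources used here. The 12 arrays lay on 2 slides, and each slide held 3 rats per group.

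The miRNAs described here lie in introns of myosin heavy chain genes and are made together with them. In the rat annotation (RefSeq, GRCr8), Mir499a lies inside Myh7b, Mir208b inside Myh7, which encodes the myosin of slow fibres, and Mir208a inside Myh6, which encodes a myosin of the heart. The soleus is a postural muscle made largely of slow fibres, and miR-499 and miR-208b are known in such muscle for holding down repressors of the slow fibre programme.

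The mature sequences show which of these miRNAs have the same seed, the stretch from base 2 to base 8 on which target choice largely rests, given here in capitals. The array's miR-499 and miR-208 were taken to be the arms that RefSeq names miR-499-5p and miR-208a-3p.
miR-499-5p: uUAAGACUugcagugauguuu
miR-208b-3p: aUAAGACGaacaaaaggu
miR-208a-3p: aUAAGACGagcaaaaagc
miR-208b-5p: aAGCUUUUugcucgcguuau

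The seeds of miR-208b-3p and miR-208a-3p were the same, and miR-499-5p shared bases 2 to 7 with both. Of 724 mature rat miRNAs in the RefSeq table, these 3 were the ones with those 6 bases. Over the 18 bases of miR-208a-3p and miR-208b-3p there were 3 differences, all outside the seed. Counted from 1 at the 5′ end, with the miR-208a-3p base first, they were G10A, A16G and C18U. The fourth member, miR-208b-5p, comes from the other arm of the Mir208b hairpin and carries another seed. The hairpins of the 2 detected members are shown with the measured arm in capitals, which lies on the 5′ side in Mir499a (bases 5 to 25 of 65) and on the 3′ side in Mir208b (bases 62 to 79 of 112).
Mir499a hairpin: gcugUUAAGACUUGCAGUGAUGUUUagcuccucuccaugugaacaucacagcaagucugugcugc
Mir208b hairpin: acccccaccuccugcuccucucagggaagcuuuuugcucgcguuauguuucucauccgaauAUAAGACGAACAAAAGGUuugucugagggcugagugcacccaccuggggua

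The values are scaled signals, that is, fluorescence relative to the brightness of the array, which was taken as the 75th percentile over the 162 miRNAs that every array detected. That percentile ran from 864 to 1911 signal units, and between 177 and 220 miRNAs were detected per array. A miRNA that was not detected on an array was set to a floor of 5.17 signal units, the median over arrays of the lowest detected signal. Probes differ in brightness, so that signals of 1 miRNA can be compared between rats but not with those of another miRNA. The RNA came from whole muscle pieces, in which fewer slow fibres and less of a miRNA per fibre cannot be told apart.

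miR-499, the Myh7b miRNA, was present in every rat, and 11 of the 12 rats lay within a 2.01-fold range. In offspring of control dams its scaled signal was lowest in rat A110 at 4553, with a median of 5999, and highest in rat A75 at 9137 (mean 6409 ± 1844, SD, n = 6). In the high fat group it was lowest in rat H3 at 366, with a median of 6080, and highest in rat H20 at 7994 (mean 5419 ± 2678, SD, n = 6). Rat H3 stood far below all the others, and the remaining 5 rats of its group, from 5051 to 7994, lay inside the control range (mean 6429 ± 1141 without H3). The lowest of the other 11 rats had 12.5 times the signal of H3, and 8.91 times it when the arrays were not scaled.

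The error that the scanner software gives for miR-499 was close to 7.7% of the signal on each array (7.66% to 7.90%). Ordered by signal, the 11 rats other than H3 ran from A110 through C60, C51, C73, C25, H1, A89, A37, H10 and H20 to A75. Of the 10 gaps between neighbours in this order, 7 were within the combined error of their 2 arrays, and 3 exceeded it, those between C25 and H1, between A37 and H10 and between H20 and A75.

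miR-208b-3p, the miRNA of the slow myosin gene Myh7, was much dimmer and spread more widely. In offspring of control dams it was lowest in rat C60 at 30.3, with a median of 45.2, and highest in rat A75 at 112 (mean 52.5 ± 29.9, SD, n = 6). The high fat group had a highest value of 71.2 in rat A37 and a median of 41.0, and the lowest was rat H3, in which it was not detected (mean 43.2 ± 24.1, SD, n = 6, with H3 at the floor). The groups overlapped, with 34.0 to 71.2 in the 5 high fat rats other than H3 (mean 50.8 ± 17.1) and 30.3 to 47.6 in the 5 control rats other than A75 (mean 40.7 ± 7.71). The lowest signal of the other 11 rats, in C60, was 5.87 times the floor that stands for the undetected value in H3. When the arrays were not scaled, the lowest signal of the others was 3.90 times the floor. The fold thus depends on the scaling and on where the floor is set.

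Over the 11 rats miR-208b-3p had a 3.69-fold range, and the SD of its log2 signal was 0.56 against 0.33 for miR-499. Its array error was larger too, with a median of 9.57% of the signal and at most 13.9%. In its order 8 of the 10 gaps between neighbours were within the combined array error, and the 2 that exceeded it set the rats H20, A37 and A75 above the other 8.

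**Figure D1:**
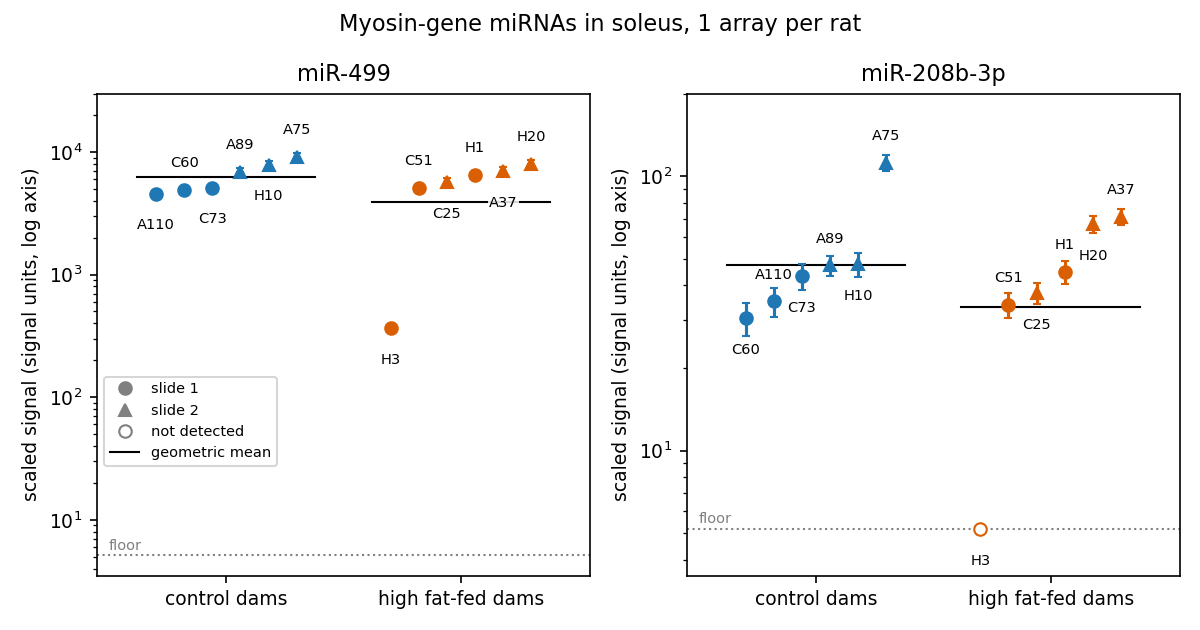
Scaled signal (log axis) of miR-499 (left) and miR-208b-3p (right) in each rat, with the array error as bars, the slide as the symbol and the geometric mean of each group as a line (H3 at the floor for miR-208b-3p). Rat H3 lies at 366 and at the floor of 5.17, below all the other rats of both groups, and A75 is the highest in both panels.

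The heart myosin miRNA, miR-208, was detected in 0 of 12 rats, and so was miR-208b-5p. Both are listed at 0.1, the value that the scanner software gives for an undetected miRNA, on every array. The 2 star strands that the rule leaves out behaved differently from each other. miR-208*, taken to be miR-208a-5p, was detected on all 12 arrays, at 34.3 to 60.7 in offspring of control dams and 31.0 to 43.9 in the high fat group. Rat H3 had 35.7, inside the range of the others, although the other arm of the same hairpin was detected nowhere.
miR-208a-5p: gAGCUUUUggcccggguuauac
miR-499-3p: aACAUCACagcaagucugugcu

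The other star strand, miR-499*, taken to be miR-499-3p and so the partner arm of miR-499 itself, was near the limit of detection. It was found in 5 of 6 control and 4 of 6 high fat rats (Fisher's exact test, two-sided, p = 1) and missing in H3, C51 and H10. Rat H10 had the third highest miR-499 of all rats, 7822, so that a high signal of one arm did not go with a detected other arm in each rat. Where it was detected, miR-499* lay between 15.7 and 36.3.

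The diets of the dams did not separate the rats by either miRNA. The study itself lists miR-499 among the miRNAs that were lower in offspring of high fat-fed dams. Over all 12 rats its difference had the same direction here, but it did not pass the 0.05 threshold. Why the study's call and the result here differ was not tested. In limma, 0 of the 193 miRNAs detected on at least 6 arrays had an adjusted p under 0.05 (0%), and 2 had an unadjusted p under 0.05 (1.04%), neither of them a myosin-gene miRNA. For miR-499 the log2 difference, high fat minus control, was -0.65 (standard error 0.63, 95% interval -2.02 to 0.72, limma adjusted p = 0.700). The exact two-sided permutation test over 924 assignments of the rats gave p = 0.565, and p = 0.475 when rats were exchanged within slides.

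Leaving out H3 took the difference of miR-499 to 0.035 (95% interval -0.41 to 0.48, limma adjusted p = 0.962). For miR-208b-3p the log2 difference was -0.51 (standard error 0.56, 95% interval -1.72 to 0.70, limma adjusted p = 0.733, exact two-sided permutation p = 0.545) and 0.032 without H3 (95% interval -0.67 to 0.74, limma adjusted p = 0.964). The intervals were narrower without H3 for both miRNAs. Within the slides and without H3, the difference of miR-499 was 0.24 on slide 1 and -0.22 on slide 2, and that of miR-208b-3p 0.12 and -0.17.

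**Figure D2:**
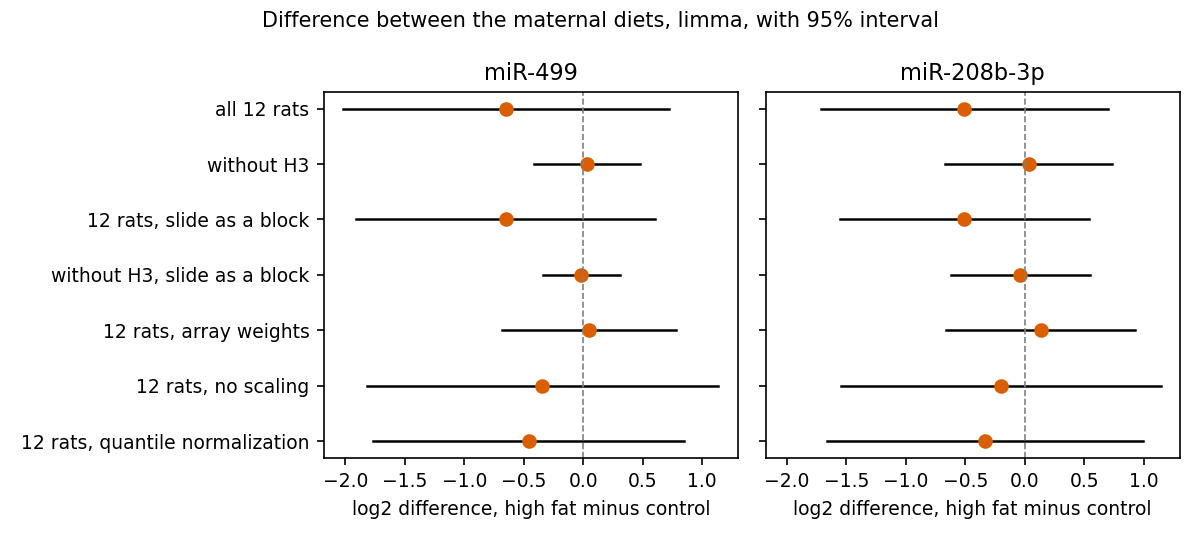
Log2 difference of miR-499 and miR-208b-3p between offspring of high fat-fed and control dams (points) with the 95% interval from limma (lines), for all 12 rats and under other settings. The differences of -0.65 and -0.51 over all rats moved to 0.035 and 0.032 without H3, and every interval crosses 0.

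Both miRNAs were higher on slide 2 than on slide 1, in a design in which the diets are balanced between the slides. On slide 1, miR-499 ran from 4553 to 6503 in the 5 rats other than H3 (mean 5229 ± 744), and on slide 2 from 5658 to 9137 (mean 7409 ± 1187, SD, n = 6). The slides overlapped by 1 pair of rats, C25 on slide 2 lying below H1 on slide 1. The log2 difference, slide 2 minus slide 1, was 0.50 over 11 rats (exact two-sided permutation p = 0.0108) and 1.14 with H3 (exact p = 0.00433). Over the 162 miRNAs detected on all arrays, 17 (10.5%) differed between the slides at an adjusted exact permutation p under 0.05 with all 12 rats, and miR-499 was one of them (adjusted p = 0.0413). In 7 (4.32%) the slides did not overlap over 12 rats, and miR-499 was not among these.

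For miR-208b-3p the range was 30.3 to 44.7 on slide 1 without H3 and 37.4 to 112 on slide 2, a log2 difference of 0.69 over 11 rats (exact two-sided permutation p = 0.0281) and 1.16 with H3 at the floor (exact p = 0.0108). The direction was the same under all 4 scalings, with log2 differences over 11 rats of 0.50 to 0.93 for miR-499 and 0.69 to 1.12 for miR-208b-3p. With the 75th percentile over all rat miRNAs the exact two-sided permutation p was 0.0455 for miR-499 and 0.0519 for miR-208b-3p, which then missed the 0.05 threshold. Over the same scalings the median of the 162 miRNAs moved from -0.094 to 0.34. miR-208*, in contrast, had a log2 difference of -0.30 over 11 rats (p = 0.0390 by the exact two-sided permutation test), but one of 0.13 where the arrays were not scaled. The arrays of slide 2 were brighter on the whole, with 75th percentiles of 1230 to 1911 against 864 to 1403. Over 11 rats brightness correlated weakly with miR-499 (r = 0.28, permutation p = 0.408) and miR-208b-3p (r = 0.28, permutation p = 0.406). The part of the slide in the levels of the 2 miRNAs was not tested further.

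The 2 miRNAs varied together between rats, although they come from introns of different genes. Over the 11 rats other than H3, Pearson's r of their log2 signals was 0.863 (permutation p = 0.00026) and Spearman's rho was 0.936 (permutation p = 7e-05). Rat A75 was the highest in both, and A110, C60 and C51 were the lowest 3 in both, in a different order. Over 12 rats, with H3 at the floor, r was 0.949 (permutation p = 3e-05) and rho 0.951 (permutation p = 3e-05). Without the 2 rats farthest from the median of miR-499, r was 0.811 over 12 rats (H3 and A75 left out, permutation p = 0.00406) and 0.800 over 11 (A110 and A75 left out, exact permutation p = 0.00892).

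Since both miRNAs differ between the slides, the relation was also taken within them. With the slide means removed, r over 11 rats was 0.753 (permutation within slides, p = 0.0139). On slide 2 alone r was 0.811 (6 rats, exact permutation p = 0.0569), and on slide 1 without H3 it was 0.672 (5 rats, exact permutation p = 0.208). Removing the brightness of the arrays left r at 0.851 (permutation p = 0.00063). Among all 162 miRNAs that were set against miR-208b-3p over 11 rats, miR-499 had the highest r, and it was the 1 miRNA (0.617%) with an adjusted p under 0.05 (adjusted p = 0.0275). In that family the relation with slide means removed had an adjusted p of 0.568. In the other direction, 6 miRNAs had a higher r with miR-499 over 11 rats than miR-208b-3p had. miR-208b-3p was therefore not the miRNA most like miR-499.

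**Figure D3:**
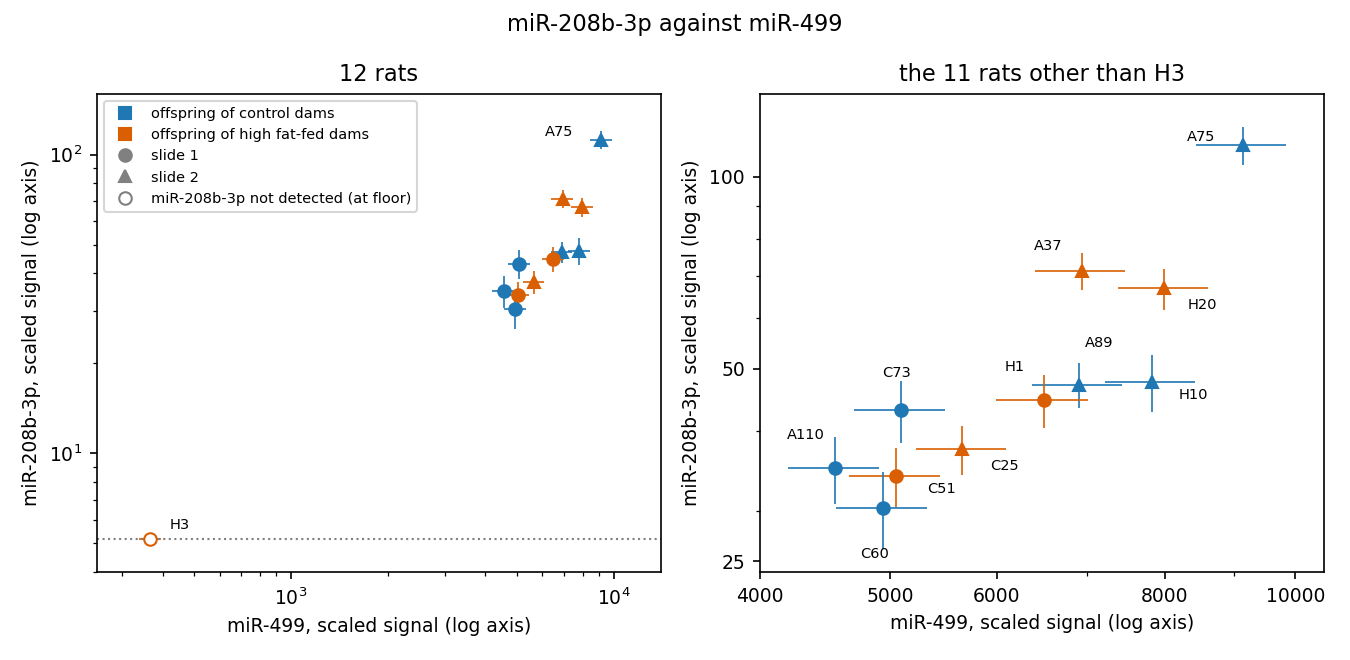
Scaled signal of miR-208b-3p against miR-499 (log axes, array errors as bars) in 12 rats (left) and in the 11 rats other than H3 (right), coloured by the diet of the dam, with the slide as the symbol. The 11 rats fall along a rising band from A110, C60 and C51 to A75, with rats of both diets along it, and H3 lies alone at the lower left.

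To see which other miRNAs followed this gradient, each of the 161 other miRNAs detected on all arrays was correlated with miR-499. Over 12 rats 17 miRNAs (10.6%) had an adjusted p under 0.05, and over the 11 rats without H3 there were 9 (5.59%), of which 6 were called in both. All of these had a positive r. Rat H3 set much of the picture: the median r of the 161 miRNAs was 0.25 with it and 0.01 without it, and 92 of 161 had the same sign with and without it.

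The miRNA of highest r with miR-499, over 12 and over 11 rats, was miR-22*, the minor arm of a hairpin whose major arm is abundant in muscle. Its scaled signal was 151 in H3, 319 to 400 in the other 5 rats of slide 1 and 389 to 571 on slide 2. The rat with the least of it was H3 and the one with the most A75, the same as for miR-499. Its r with miR-499 was 0.947 over 12 rats (rho 0.979, adjusted permutation p = 0.00107) and 0.961 over 11 (rho 0.973, adjusted permutation p = 0.00161). With slide means removed it was 0.902 (adjusted permutation p = 0.0256), below the 0.921 of miR-30a in that setting, and without A110 and A75 as well as H3 it was 0.929 (exact permutation p = 2.76e-05).

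Over the 11 rats the next 5 in likeness were miR-29a*, miR-450a, miR-126*, miR-30b-5p and miR-196c, with r between 0.867 and 0.924. Sequences are shown for 5 of these 6, since RefSeq's table had no entry for miR-30b-5p, to compare their seeds with that of miR-499.
miR-22-5p: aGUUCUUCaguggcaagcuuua
miR-29a-5p: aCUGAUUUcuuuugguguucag
miR-450a-5p: uUUUGCGAuguguuccuaaugu
miR-126a-5p: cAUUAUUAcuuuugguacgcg
miR-196c-5p: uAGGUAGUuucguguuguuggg

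The seed of miR-499 was in none of these 5. For miR-29a*, a minor arm of the miR-29 family, r was 0.924 over 11 rats (rho 0.936, adjusted permutation p = 0.00698), and 0.483 over 12 (rho 0.909, adjusted permutation p = 0.200), so that its rank order followed miR-499 with H3 too. It was at 19.3 in H3, 16.7 to 25.9 in the other rats of slide 1 and 32.4 to 46.5 on slide 2, so that the slides did not overlap and H3 was not the lowest. With slide means removed r was 0.820 (adjusted permutation p = 0.0330).

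For miR-30b-5p, of the widely expressed miR-30 family, r depended on H3. It stood at 2937 in H3, above all the others but H10 and A75, in a range of 2170 to 3461 over the other 11 rats. Its r was 0.868 without H3 (rho 0.909, adjusted permutation p = 0.00698) and -0.056 with it (rho 0.608, adjusted permutation p = 0.957). With slide means removed r was 0.877 over 11 rats (adjusted permutation p = 0.0256).

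miR-450a, miR-126* and miR-196c followed miR-499 with and without H3. Over 12 rats their r was 0.910, 0.906 and 0.831 (adjusted permutation p = 0.00107, 0.00201 and 0.00107), and over 11 it was 0.877, 0.874 and 0.867 (adjusted permutation p = 0.0343 for each). miR-126*, which comes from an intron of the endothelial gene Egfl7, was at 117 in H3, 250 to 323 in the other rats of slide 1 and 394 to 506 on slide 2. All 3 were thus lowest in H3, and with slide means removed their r over 11 rats was 0.646, 0.644 and 0.602, with adjusted permutation p-values of 0.209, 0.209 and 0.362.

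miR-133a, miR-145 and miR-26b completed the 9 miRNAs called over 11 rats, with r of 0.815, 0.853 and 0.805. No miRNA had an adjusted p under 0.05 with a negative r. The 3 lowest r over 11 rats were -0.709 for miR-191*, -0.716 for miR-532-5p and -0.778 for miR-3573-3p (adjusted permutation p = 0.165, 0.152 and 0.0847).

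**Figure D4:**
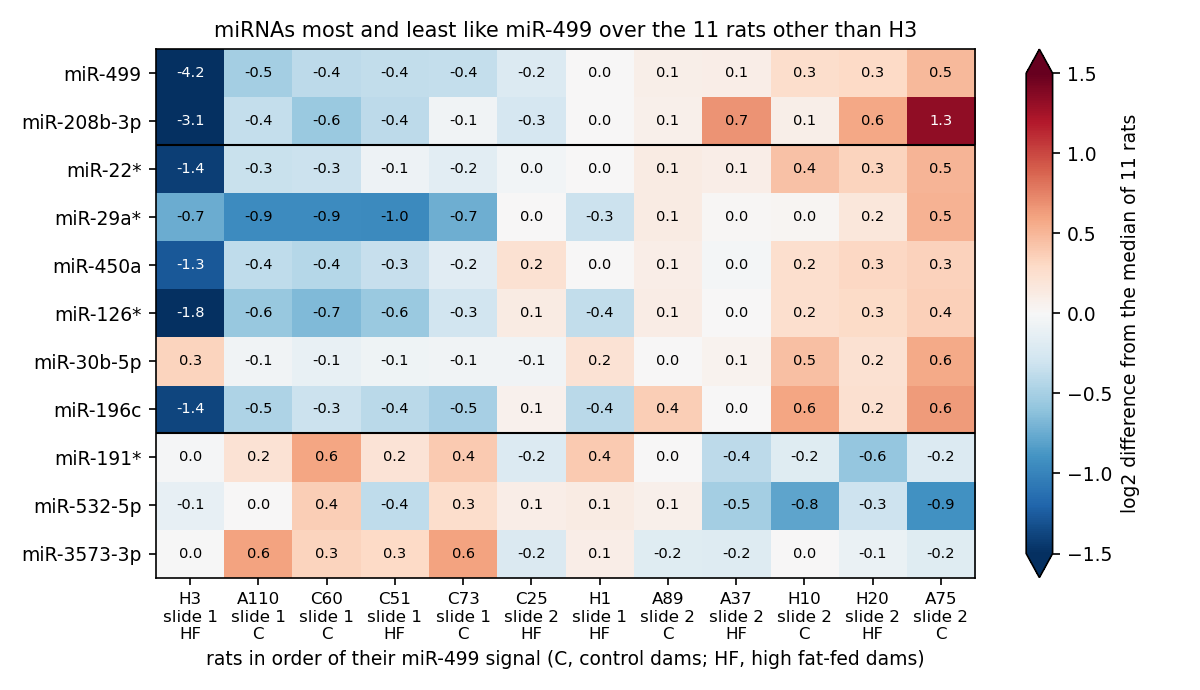
Log2 difference of each miRNA from its median over the 11 rats other than H3, with the rats ordered by their miR-499 signal, for the 2 myosin-gene miRNAs (top rows), the 6 miRNAs most like miR-499 over 11 rats (middle) and the 3 least like it (bottom). miR-22* rises along the order with H3 in its place, whereas H3 is not the lowest rat for miR-29a* and miR-30b-5p, which rise over the other 11.

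With H3 included, the miRNAs of highest r were, after miR-22*, miR-202*, miR-23a, miR-126, miR-143 and miR-27b, with r from 0.913 to 0.939. These 5 had r of 0.273 to 0.566 over the 11 rats, where 0 of them had an adjusted p under 0.05. Of the 5, miR-202*, miR-23a and miR-143 had one under 0.05 over 12 rats. miR-23a, for example, was at 6332 in H3 and between 11929 and 17802 in all the others, and its r went from 0.938 (adjusted permutation p = 0.0424) to 0.522 (adjusted permutation p = 0.361). The r of these 5 was lower without H3, while rho moved less for miR-202*, from 0.776 to 0.709. Since the 5 were picked by their r with H3 included, some fall follows from the choice. The 3 lowest r over 12 rats, of miR-93 (-0.870), miR-1224 (-0.866) and miR-28 (-0.730), were picked in the same way. They moved to -0.229, 0.095 and -0.234 without H3.

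**Figure D5:**
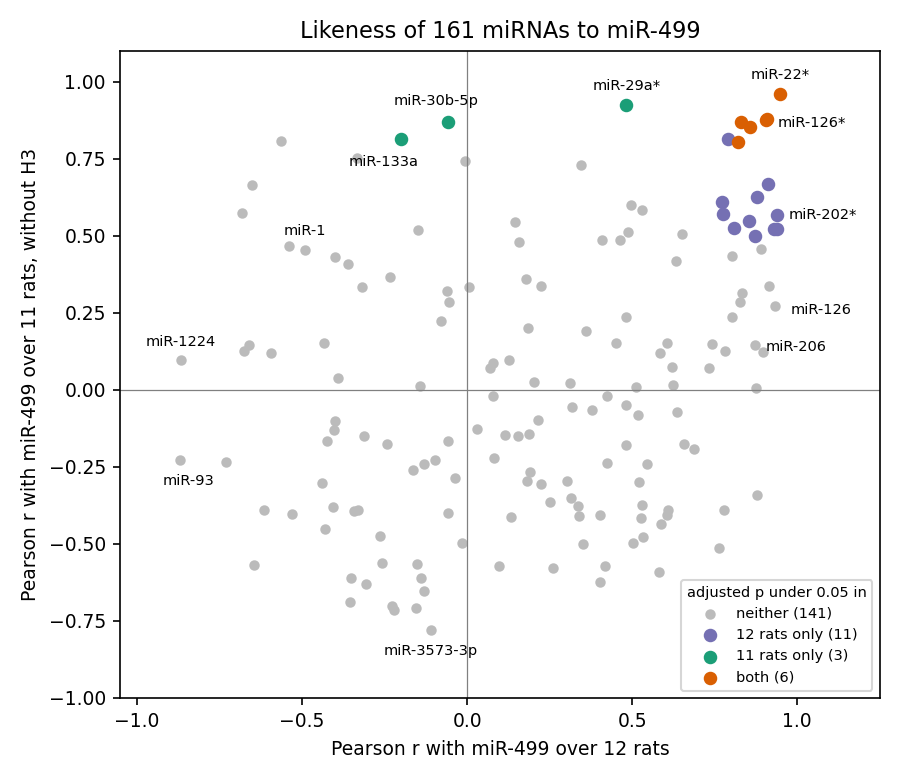
Pearson's r with miR-499 of the 161 other miRNAs detected on all arrays, over 12 rats (horizontal) and over the 11 rats without H3 (vertical), coloured by the set in which the adjusted p was under 0.05. The 6 miRNAs called in both lie at the upper right, 11 were called with H3 alone and 3 without it alone, and miR-126 at 0.933 and 0.273 shows the fall of r without H3.

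The same search was made with miR-208b-3p over 11 rats. After miR-499 itself, its highest r were those of miR-29a* (0.814, adjusted permutation p = 0.106) and miR-22* (0.804, adjusted permutation p = 0.125), both also among the closest to miR-499. Its lowest were -0.71 for miR-532-5p, -0.72 for miR-125a-5p and -0.75 for miR-20a, each with an adjusted permutation p of 0.212.

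How many miRNAs followed miR-499 depended on the scaling of the arrays and on single rats. Over 11 rats the count was 90 with the 75th percentile taken over all rat miRNAs, 76 without scaling and 18 under quantile normalization (12 positive and 6 negative). Without A75 it was 1, and without C51 or C60 it was 2. The relation of miR-499 with miR-208b-3p had an r of 0.920, 0.919 and 0.943 under the same 3 settings, beside 0.863 with the main scaling. Its r was thus higher in settings in which more miRNAs correlated with miR-499. These values therefore do not set the pair apart from other miRNAs.

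With slide means removed over 11 rats, 12 miRNAs (7.45%) had an adjusted p under 0.05, and 4 of them were among the 9: miR-22*, miR-29a*, miR-30b-5p and miR-133a. The other 8 included 4 more of the miR-30 family, miR-30a, miR-30c, miR-30d and miR-30e, with r of 0.878 to 0.921. Of the 9 rows of this family detected on all arrays, 5 were called. The other 4 were the partner arms miR-30b-3p (r = -0.063), miR-30a* (0.781), miR-30c-2* (0.731) and miR-30e* (0.760). The family was picked out after these values were seen. Before the slide means were removed, miR-30a, miR-30c, miR-30d and miR-30e had r of 0.409 to 0.544 over 11 rats.

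The general muscle miRNAs were set beside miR-499, as measures of muscle RNA that do not mark slow fibres, apart from miR-206. Of the 4 listed muscle miRNAs on the array, miR-1, miR-133a, miR-133b and miR-206, 0 were called over 12 rats and 1 over 11, miR-133a, where 10.6% and 5.59% of all miRNAs were. Their median r was -0.17 over 12 rats and 0.49 over 11, beside 0.25 and 0.01 for all miRNAs. With slide means removed 2 of the 4 were called, miR-133a (r = 0.878) and miR-133b (r = 0.865), beside 7.45% of all.

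miR-206, a muscle miRNA richest in slow fibres, had r of 0.871 with miR-499 over 12 rats (rho 0.224, adjusted permutation p = 0.140) and 0.145 over 11 (adjusted permutation p = 0.828). It was at 9354 in H3 and between 30841 and 60699 in the others. Apart from H3, its order over the rats was not that of miR-499, and with slide means removed r over 11 rats was 0.743 (adjusted permutation p = 0.0728).

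Markers of other cells were compared in the same way. Of the 4 vessel miRNAs (miR-126, miR-126*, miR-143 and miR-145), 3 were called over 12 rats and 2 over 11, miR-126* and miR-145. Of all miRNAs, 10.6% were called over 12 rats and 5.59% over 11. The median r of the 4 was 0.92 over 12 rats and 0.69 over 11, beside 0.25 and 0.01 for all miRNAs. Of the 6 blood miRNAs and the 3 fibroblast miRNAs 0 were called in either set, with median r over 11 rats of 0.047 and -0.41. The 2 fat miRNAs, 0 of which were called in either set, were unlike each other, with r over 11 rats of 0.808 for miR-365 (adjusted permutation p = 0.0630) and -0.38 for miR-193, and of -0.56 and -0.41 over 12. The 1 liver or epithelium miRNA detected on all arrays, miR-192, had r of -0.39 over 11 rats and 0.61 over 12. With slide means removed over 11 rats 0 of the 4 vessel miRNAs were called (adjusted permutation p = 0.209 to 0.371), beside 7.45% of all miRNAs. Both miR-126* and miR-145 differed between the slides (adjusted exact permutation p = 0.0413). The part of the vessel markers in the level of miR-499 was not tested. The star strand miR-208* had r of -0.27 with miR-499 over 11 rats (adjusted permutation p = 0.681) and of 0.19 over 12.

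Rat H3, in which both myosin-gene miRNAs were lowest, differed in many other miRNAs. It was below every other rat in 64 (39.5%) of the 162 miRNAs that all arrays detected and above every other rat in 20 (12.3%). No miRNA had as wide a gap between H3 and the nearest rat above it as miR-499, at 12.5-fold, and in 10 the gap was over 2-fold, with miR-206 next at a log2 gap of 1.72. No rat but H3 was lowest by over 2-fold in any miRNA.

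The labelled tissue was checked in H3 by its marker lists. The sum of the 4 muscle miRNAs was 244719, inside the range of the other rats (142443 to 280572), with miR-1 at 136123 above all others (51591 to 106415), miR-206 below them, and miR-133a and miR-133b within. The 3 listed slow fibre miRNAs were miR-499, miR-208b-3p and miR-206, so that this list holds the 2 members and is not a separate measure. They summed to 9720, against 36537 to 66543 in the others. Of the 9720, 9354 was miR-206, which also counts in the muscle sum. The 4 vessel miRNAs summed to 4980, against 9205 to 12467, and all 4 lay below the other rats. Among the 3 fibroblast miRNAs 2 were below the others, with a sum of 2342 against 2469 to 7391.

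The 6 blood miRNAs summed to 4515 in H3, inside the range of the others (1939 to 4518), with miR-451 above them and miR-150 below. The 2 fat miRNAs, miR-193 and miR-365, summed to 945 against 281 to 626. The 10 liver or epithelium miRNAs summed to 67.1 in H3, inside the range of the others (46.2 to 529). Among them H3 was the 1 rat with a detected signal of miR-200a (12.2) and of miR-200b (8.82), and miR-200c, miR-141 and miR-429 were detected on 0 arrays, as were the nerve miRNA miR-124 and the heart miRNA miR-208. The array of H3 was not dim, with a 75th percentile of 1311 and 208 miRNAs detected. The part of these other differences in the low values of miR-499 and miR-208b-3p in H3 was not tested.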

How the data were processed

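Soleus RNA of 12 rats (100 ng each) was hybridised to 1-colour Agilent miRNA arrays. The authors deposited for every array the background-subtracted signal intensity of every miRNA, the error of that signal and a flag for detection, not normalized between arrays. Their value table of the series held the same intensity values (0 rows differed). The scanner software version is not given in the sources used here. Groups came from the labels, and human samples were not analysed here.

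After removal of 22 control rows, signals were scaled between arrays by the 75th percentile over miRNAs present on every array, set to at least 5.17 and converted to log2. Diets were compared in limma 3.58.1 (R 4.3.3) with Benjamini-Hochberg adjustment, and single miRNAs by exact permutation. Correlations were tested by 100000 random permutations in Python 3.11.15, drawn within slides where slide means were removed. For 9 rats or fewer, without removed means, all permutations were taken (exact). Scripts were tested on simulated data. Precision is limited by the number of arrays.

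Named were the members, the 6 miRNAs of highest and 3 of lowest r with miR-499 over 12 and 11 rats, 3 each for miR-208b-3p, and the marker lists. The star strands, miR-26b and the miR-30 family were named after their values were seen. Members, lists and tests were chosen with earlier results of these data known. Alternatives covered scaling, floor, detection filter, blocks, tests and each rat left out. Those with brightness removed, with undetected miRNAs at 0.1 and with slide as a block without H3 were chosen after seeing the data. Sequences are RefSeq's (GRCr8), matched by name.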

Additional observations from a re-analysis of the deposited data

Results flagged for a closer look

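Within the groups of 6 rats, 1 rat stood apart from the other 5 in 5 of the 16 groups examined. For independent groups the rule would set apart about 1 in 20, or 0.8 of 16. These groups were not independent, because the same rats recur in them, and H3 was known beforehand to stand apart. The count is therefore no test against chance. Rat H3 was set apart 3 times below the rest of the high fat group, at 366 for miR-499 (5051 to 7994 in the others), at the floor of 5.17 for miR-208b-3p (34.0 to 71.2) and at 9354 for miR-206 (30841 to 60699). Control rat A75 stood above the other control rats for miR-208b-3p, at 112 (30.3 to 47.6). Control rat H10, in which miR-499* was not detected and is set to 5.17, stood below the other control rats (15.7 to 30.2).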

How the results depend on the processing

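The correlation of miR-499 with miR-208b-3p stayed positive with a permutation p under 0.05 under all 24 alternatives over 12 rats and all 23 over 11. Leaving out each rat gave r of 0.863 to 0.970 and 0.811 to 0.913, and a floor 4 times higher moved r over 12 rats to 0.718. The counts of miRNAs that follow the members were not stable, and the cause was not tested. For miR-499 over 12 rats the count of 17 became 62 with the 75th percentile over all rat miRNAs, 44 without scaling, 8 with Spearman's rho, 5 with slide means, 10 with diet means and 10 with label letter means removed, 1 without H3 and A75 and 30 with array brightness removed. Quantile normalization gave 25, 19 positive and 6 negative. With each rat left out it was 7 to 22, lowest without A75 and 9 without H3 or H10. Over 11 rats the count of 9 became 90, 18 (quantile normalization) and 76, 5 with Spearman's rho, 2 with diet means and 2 with label letter means removed, 1 without A110 and A75 and 30 with brightness removed, and 1 to 12 with each rat left out (1 without A75, 2 without C51 or C60, 3 without A110, H10, H20 or A89). For miR-208b-3p the count of 1 became 46, 22 and 39 under the 3 scalings, 4 with Spearman's rho, 0 with slide means, 3 with diet means and 0 with label letter means removed, 0 without the 2 farthest rats, 2 with brightness removed, and 0 to 3 with each rat left out.

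The number of miRNAs that differ between the diets was 0 under all 28 alternatives. With array weights, which gave H3 the lowest weight of 0.201, the log2 differences turned to 0.051 for miR-499 and 0.13 for miR-208b-3p. Leaving out each rat gave -0.86 to 0.035 and -0.73 to 0.032, positive without H3. miR-208b-3p moved to -0.84 and -0.17 with a floor 4 times lower and higher, and to -1.46 with undetected miRNAs kept at 0.1. No value of miR-208b-3p is given for the miRNAs detected on all 12 arrays, to which it does not belong. No paired analysis was possible because the rats' numbers are not shared between the groups. Dim signal limits miR-499*, which lies close to the floor, and the value of miR-208b-3p in H3, which is set to it.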
